A study of Ovis aries with 6 samples.

Results

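The genes described here are 10 targets of the transcription factor complex of YAP and TEAD, measured in cultured endothelial cells of the sheep mitral valve (VECs), which cover the leaflets of the valve between the left chambers of the heart. They were chosen by symbol, as CCN1, CCN2, ANKRD1, AMOTL1, AMOTL2, AJUBA, LATS2, AXL, CRIM1 and TEAD1. The choice was made with earlier results of these data known, so the list as a whole was not tested. All 10 were found among the 18865 rows of the deposited count table, and all 10 passed the filter on low counts with 14326 genes. The cells were kept for 24 h with plasma of sheep after myocardial infarction (MI), here called post-MI plasma (3 libraries), or with plasma of naive sheep (3 libraries). The study concerns endothelial-to-mesenchymal transition, in which endothelial cells take on mesenchymal features, and sFRP3, a secreted inhibitor of Wnt signalling. No genotype, cell line, passage, plasma dose or number of plasma or cell donors is given in the labels, so the error behind each p-value is that between libraries and could be purely technical.

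YAP and its relative TAZ (gene WWTR1) are co-activators without a DNA-binding domain of their own, and they reach their target genes through the TEAD factors. In the Hippo pathway the MST kinases activate the LATS kinases, which phosphorylate YAP and TAZ and keep them out of the nucleus, whereas spreading on a stiff surface, tension in the actin cytoskeleton and low cell density let them in. In endothelial cells the pathway is known for its response to flow and to matrix stiffness and for its part in vessel growth. Several targets, among them AMOTL2 and LATS2, in turn restrain YAP and so form a feedback loop. YAP activity is set largely by phosphorylation and location of the protein, neither of which was measured here.

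Total counts were 14858472 to 18747848 in the post-MI libraries and 17446474 to 20672794 in the naive libraries. Levels are TMM-scaled CPM, the gene's share of the scaled library total, which are not divided by transcript length, so they compare libraries for 1 gene and not genes with each other. Naive replicate 1 stood apart from the other 5 libraries. On the first principal component of the 500 most variable genes, which held 59.2% of their variance, it lay at -52.3 and the others between -0.50 and 18.5. The fold change of each target is therefore given with and without it.

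With post-MI plasma the mean level of 9 of the 10 targets was higher than with naive plasma and that of ANKRD1 was lower, but no target passed the test. The median log2 fold change of the 10 genes, post-MI over naive, was 0.20, against -0.014 over all genes tested. By edgeR's quasi-likelihood test 0 of the 10 had an adjusted p below 0.05, as was so for 0% of all genes tested. At an unadjusted p below 0.05 edgeR also gave 0 of the 10, against 8.68% of all genes tested (1244 genes). The DESeq2 Wald test likewise gave 0 of the 10, against 221 genes (1.51%) among the 14675 for which it returned an adjusted p, and limma-voom gave 0 of the 10 and 0% of all genes. Without naive replicate 1 the picture of 9 genes higher did not hold: 3 log2 fold changes were positive, 7 were negative, and the median was -0.078.

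**Figure D1:**
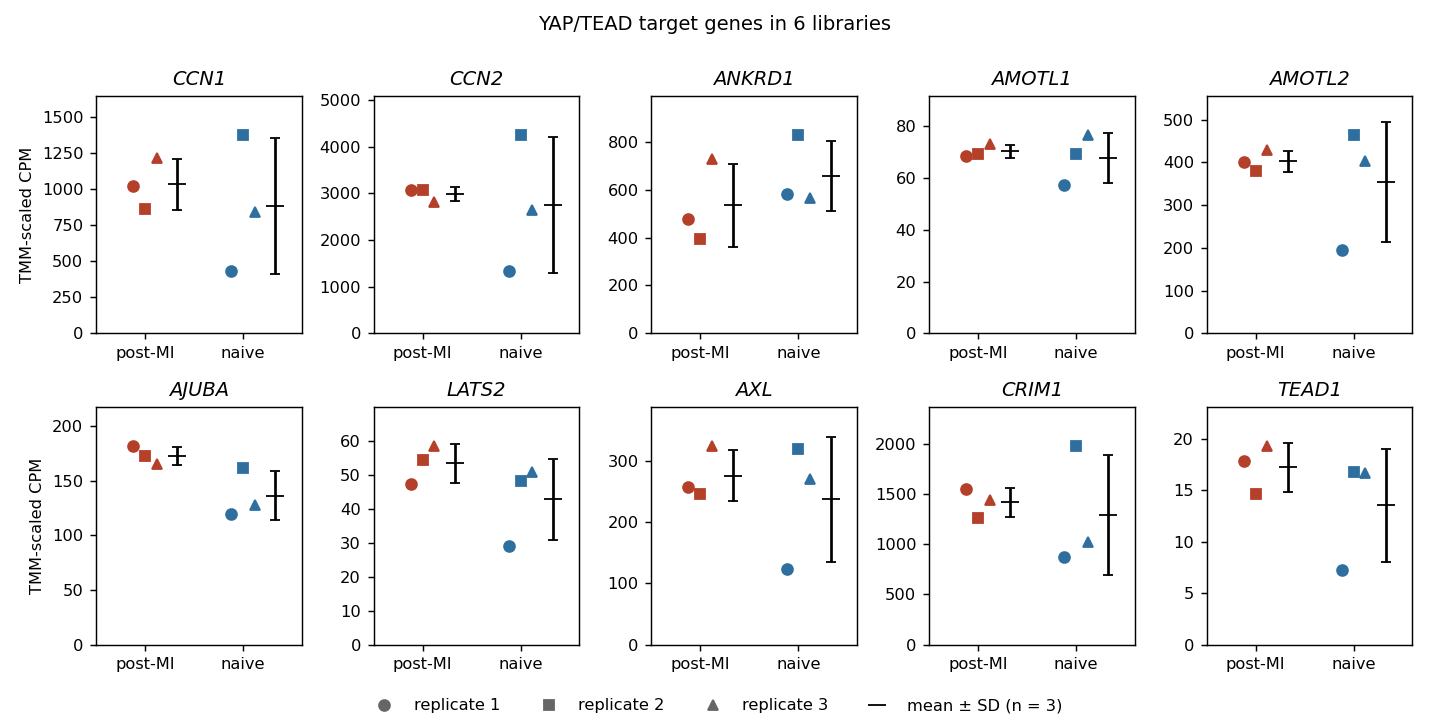
TMM-scaled CPM (vertical axes, each starting at 0) of the 10 YAP/TEAD target genes in the 3 post-MI libraries (left in each panel) and the 3 naive libraries (right), with the replicate given by the symbol and the mean and SD by the black bars. The circle of naive replicate 1 is the lowest point for 9 genes, all but ANKRD1.

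The matricellular genes CCN1 (CYR61) and CCN2 (CTGF) are the most used readouts of YAP activity and encode secreted proteins that bind integrins and matrix. CCN1 was at 1019, 862 and 1219 CPM in post-MI replicates 1, 2 and 3, against 432, 1373 and 839 CPM in naive replicates 1, 2 and 3. The naive libraries thus held both the lowest and the highest value, and the post-MI libraries lay between them. CCN1 gave a log2 fold change of 0.23 ± 0.39 (SE, n = 3 each), with a 95% interval from -0.69 to 1.15 and an edgeR adjusted p of 0.867. For CCN2 the post-MI libraries were at 3068, 3080 and 2807 CPM and the naive libraries at 1336, 4250 and 2643 CPM. The post-MI levels of CCN2 lay close together, with a highest over lowest ratio of 1.097, while the ratio among naive libraries was 3.18. Its log2 fold change was 0.12 ± 0.38 (SE, n = 3 each), with an interval from -0.78 to 1.02 and an edgeR adjusted p of 0.934.

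Removal of naive replicate 1 turned the sign of both CCN genes, while removal of any other single library did not. Without naive replicate 1 the log2 fold change was -0.089 for CCN1 and -0.20 for CCN2. Without naive replicate 2, the library with the highest level of each, the values were 0.70 for CCN1 and 0.59 for CCN2, with edgeR adjusted p of 0.471 and 0.527. Within each naive library the ratio of CCN1 to CCN2 counts was nearly the same, at 0.324, 0.323 and 0.317, so the 2 genes were low and high together there. In the post-MI libraries this ratio was 0.332, 0.280 and 0.434, a wider spread.

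ANKRD1, a nuclear ankyrin repeat protein of striated muscle and stressed cells and a strong YAP target in many cell types, was the 1 target with a lower mean level under post-MI plasma. It was at 479, 395 and 730 CPM in the post-MI libraries and at 582, 828 and 566 CPM in the naive libraries. Post-MI replicate 3 lay above naive replicates 1 and 3, so the groups overlapped. The log2 fold change was -0.30 ± 0.27 (SE, n = 3 each), with an interval from -0.94 to 0.34 and an edgeR adjusted p of 0.731. With single libraries left out it stayed negative, from -0.59 without post-MI replicate 3 to -0.10 without naive replicate 2. It was -0.37 without naive replicate 1. In the fit without post-MI replicate 3 the edgeR p of ANKRD1 was 0.0490 before adjustment and 0.512 after it. There 1409 of the 14460 genes tested had an unadjusted edgeR p below 0.05. ANKRD1 was also the target whose profile over the libraries lay farthest from the other targets. For each of the 9 others except AMOTL1 it was the most distant target, by the root mean square difference of centred log2 CPM.

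**Figure D2:**
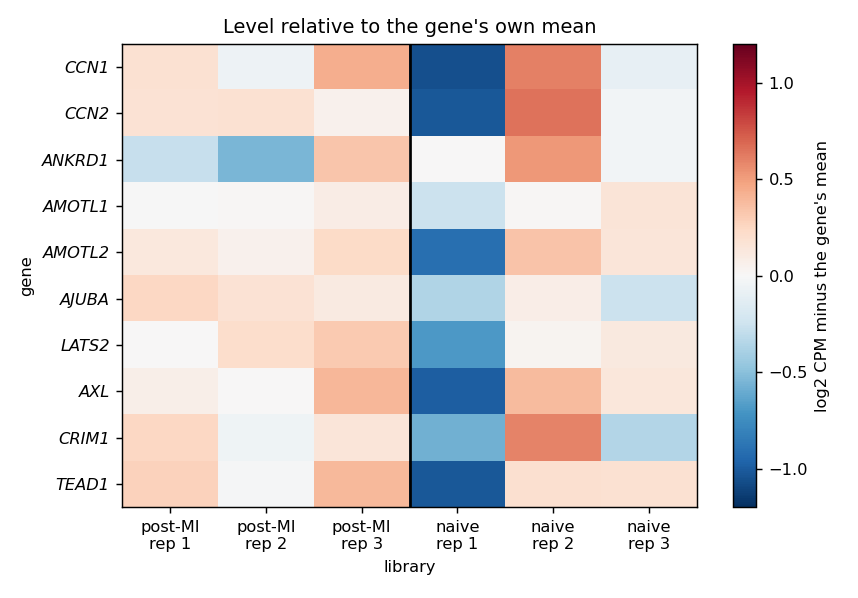
log2 CPM minus the gene's own mean over the 6 libraries (colour scale), with the genes as rows and the 3 post-MI libraries left of the 3 naive libraries. The column of naive replicate 1 is at -1.06 for CCN1, -1.02 for CCN2 and -1.02 for TEAD1, but at 0.0078 for ANKRD1.

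AMOTL1 and AMOTL2 encode angiomotin-like proteins, junction scaffolds that bind YAP and hold it outside the nucleus. AMOTL1 hardly varied, at 68.5, 69.3 and 73.2 CPM in the post-MI libraries and 57.4, 69.3 and 76.5 CPM in the naive libraries. It had the smallest log2 fold change of the 10 targets, 0.054 ± 0.15 (SE, n = 3 each), and a 95% interval from -0.29 to 0.40. AMOTL2 was at 400, 380 and 429 CPM with post-MI plasma and at 196, 464 and 404 CPM with naive plasma. In AMOTL2 naive replicate 1 alone was low, and the other 5 libraries lay within 380 to 464 CPM. The log2 fold change of AMOTL2 was 0.19 ± 0.30 (SE, n = 3 each; edgeR adjusted p = 0.859), and -0.097 without naive replicate 1, where that of AMOTL1 was -0.043.

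AJUBA, a LIM protein that binds LATS kinases at junctions under tension and limits their action on YAP, was the 1 target whose groups did not overlap. It was at 181, 173 and 165 CPM in the post-MI libraries, all above the 119, 161 and 128 CPM of the naive libraries. Among all genes tested, 8.32% were higher without overlap and 7.82% lower, so 1 of 10 targets was near the background. AJUBA had the smallest p of the targets in edgeR, 0.0623 before adjustment and 0.566 after it, with a log2 fold change of 0.34 ± 0.16 (SE, n = 3 each) and an interval from -0.023 to 0.71. With a single library left out its log2 fold change was lowest without naive replicate 1 (0.27) and highest when naive replicate 2 was left out (0.48). In the latter fit its edgeR p was 0.0190 before adjustment and 0.386 after it.

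LATS2, the kinase that phosphorylates YAP and is itself induced by it, was at 47.2, 54.4 and 58.3 CPM in the post-MI libraries and 29.1, 48.1 and 50.9 CPM in the naive libraries. Naive replicate 1 was again lowest, and post-MI replicate 1 lay under both other naive libraries. LATS2 gave a log2 fold change of 0.32 ± 0.23 (SE, n = 3 each; edgeR adjusted p = 0.661), and 0.11 without naive replicate 1.

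AXL and CRIM1 encode membrane proteins. AXL, a receptor tyrosine kinase for the ligand GAS6, was at 258, 247 and 324 CPM in the post-MI libraries and 123, 320 and 270 CPM in the naive libraries. Apart from naive replicate 1 the libraries of both groups were interleaved. The log2 fold change of AXL was 0.22 ± 0.34 (SE, n = 3 each; edgeR adjusted p = 0.853), and -0.086 without naive replicate 1. CRIM1, which binds bone morphogenetic proteins and other growth factors at the cell surface, was at 1554, 1259 and 1442 CPM in the post-MI libraries and 877, 1977 and 1022 CPM in the naive libraries. Here naive replicates 1 and 3 were both below every post-MI library and naive replicate 2 was above them. CRIM1 gave a log2 fold change of 0.13 ± 0.31 (SE, n = 3 each; edgeR adjusted p = 0.907). Its sign turned without naive replicate 1 (-0.069) or naive replicate 3 (-0.0082). Without naive replicate 2 the value was 0.58, with an unadjusted p of 0.0231 and an adjusted p of 0.389 in edgeR. In that fit 2 targets, AJUBA and CRIM1, had an unadjusted edgeR p below 0.05, as did 1629 of the 14450 genes tested.

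TEAD1, the DNA-binding partner of YAP and TAZ, had 334, 214 and 334 counts in the post-MI libraries and 144, 290 and 355 counts in the naive libraries, the fewest of the 10 genes. These counts correspond to 17.9, 14.6 and 19.3 CPM in post-MI and 7.21, 16.8 and 16.7 CPM in naive libraries. Naive replicate 1 was low and the other 5 libraries overlapped. TEAD1 had the largest log2 fold change of the 10, 0.35 ± 0.33 (SE, n = 3 each), an interval from -0.42 to 1.116 and an edgeR adjusted p of 0.742, and gave 0.055 without naive replicate 1.

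**Figure D3:**
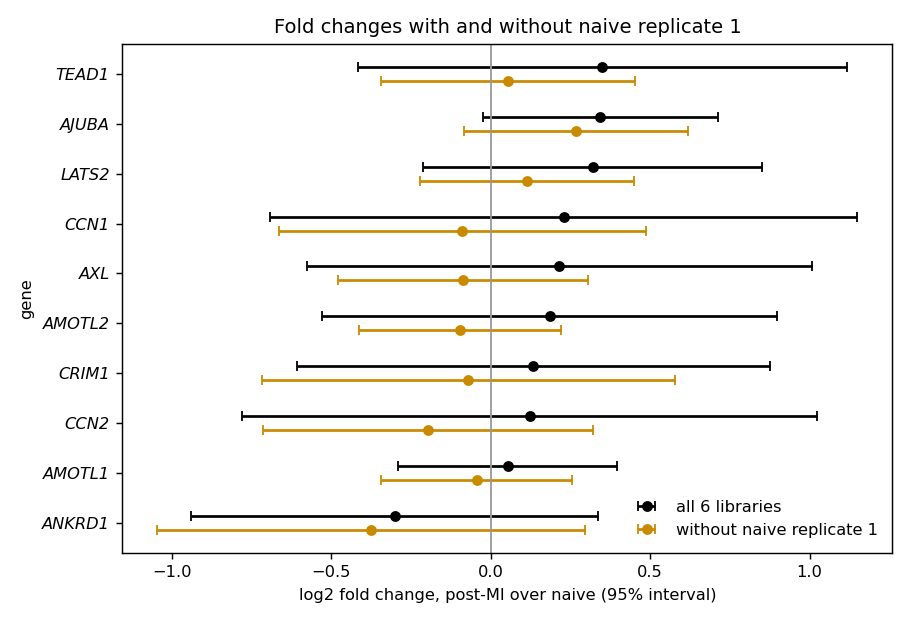
log2 fold change, post-MI over naive (horizontal axis), of each target with its 95% interval from edgeR, for all 6 libraries (black) and without naive replicate 1 (orange). Every interval includes 0, and without naive replicate 1 the points of CCN1, CCN2, ANKRD1, AMOTL1, AMOTL2, AXL and CRIM1 lie left of 0.

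The pattern the targets shared was a low level in naive replicate 1. This library was the lowest of the 6 for 9 of the 10 targets, against 29.2% of all genes tested. Relative to the mean of the other 2 naive libraries, the level in naive replicate 1 was 0.388 for CCN2, 0.391 for CCN1, 0.418 for AXL, 0.431 for TEAD1 and 0.452 for AMOTL2. CRIM1 and LATS2 followed at 0.585 and 0.588, and AMOTL1, AJUBA and ANKRD1 were nearest to their other naive libraries, at 0.787, 0.823 and 0.835. The median of this ratio was 0.518 over the targets and 0.998 over all genes tested. This difference lies within 1 group and concerns a library picked after its values were seen, and it was not tested.

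The naive libraries also spread more widely than the post-MI libraries. The highest over lowest level among naive libraries had a median of 2.29 over the targets and 1.44 over all genes tested, while among post-MI libraries the medians were 1.24 and 1.29. For 9 of the 10 targets the ratio was larger among naive than among post-MI libraries, against 66.4% of all genes tested. ANKRD1 was the exception, with 1.85 among post-MI and 1.46 among naive libraries. Naive replicate 2 was the highest library for 5 targets (CCN1, CCN2, ANKRD1, AMOTL2 and CRIM1), against 10.6% of all genes tested. The naive range enclosed every post-MI library for 5 targets (CCN1, CCN2, AMOTL1, AMOTL2 and CRIM1), against 24.2% of all genes tested. Between naive replicates 2 and 3 alone, the median ratio was 1.22 over the targets and 1.18 over all genes tested. Their range enclosed the post-MI libraries for 3 targets (CCN1, CCN2 and CRIM1), against 9.17% of all genes. These comparisons of spread and range were chosen after the values were seen and were not tested. The intervals state what difference the data leave room for: those of 6 targets lay within a log2 fold change of 1 in either direction, and those of CCN1, CCN2, AXL and TEAD1 reached beyond 1 on the upper side.

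Among the factors that act on these targets, YAP1, WWTR1, TEAD2, TEAD3, TEAD4, VGLL3 and VGLL4 were all tested. In edgeR 0 of the 7 passed, and 0 had an unadjusted p below 0.05, against 8.68% of all genes tested. DESeq2 and limma-voom also called 0 of the 7, against 1.51% and 0% of all genes with an adjusted p. For 7 genes these counts were near the background. The median log2 fold change of the 7 factors was 0.22, with 6 positive and 1 negative, and 0.097 without naive replicate 1. YAP1 had the smallest p of them and was at 89.6, 86.1 and 76.6 CPM in the post-MI libraries and 66.6, 79.4 and 70.6 CPM in the naive libraries. Its log2 fold change was 0.22 ± 0.14 (SE, n = 3 each; edgeR adjusted p = 0.628), and 0.18 without naive replicate 1. In naive replicate 1 the level of YAP1 was 0.888 of the mean of the other naive libraries, nearer to 1 than that of any of the 10 targets. TEAD3, another TEAD factor, gave 0.47 ± 0.37, and VGLL4, which competes with YAP for TEAD, gave 0.29 ± 0.25 (SE), which were 0.20 and 0.097 without naive replicate 1.

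Of 18 tested kinases, scaffolds and adaptors of the Hippo pathway, 0 passed after adjustment in edgeR, DESeq2 or limma-voom. An unadjusted edgeR p below 0.05 was found for 1 (WTIP), against 8.68% of all genes tested. The median log2 fold change was 0.068, with 11 positive and 7 negative, and -0.030 without naive replicate 1. WTIP, a LIM protein of the same family as AJUBA, gave 0.35 ± 0.14, and the kinase TAOK2, which activates the MST kinases, gave 0.42 ± 0.18 (SE, n = 3 each; edgeR adjusted p = 0.566 for both). MOB1B, a co-activator of LATS kinases, gave -0.23 ± 0.13 (SE; edgeR adjusted p = 0.597).

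A further 22 reported YAP/TEAD targets gave no common direction. Of the 21 tested, 11 log2 fold changes were above 0 and 10 below it, with a median of 0.0056. In edgeR and limma-voom 0 passed. An unadjusted edgeR p below 0.05 was found for 3, against 8.68% of all genes tested. BIRC5 (survivin), which is also a mitotic gene, had the smallest p. It was at 12.1, 9.15 and 10.1 CPM in the post-MI libraries, all above the 5.31, 3.65 and 3.01 CPM of the naive libraries. Its log2 fold change was 1.39 ± 0.26 (SE, n = 3 each), with an adjusted p of 0.300 in edgeR and 0.00124 in DESeq2. This was the 1 call that DESeq2 made in this list, against 1.51% of the genes with a DESeq2 adjusted p. NT5E (CD73), which makes adenosine at the cell surface, gave -0.52 ± 0.14, and the growth factor TGFB2 gave 0.89 ± 0.34 (SE, n = 3 each). Their edgeR adjusted p were 0.489 and 0.566. TGFB2 was at 57.3, 53.3 and 52.5 CPM in the post-MI libraries and 14.7, 40.5 and 33.0 CPM in the naive libraries, so naive replicate 1 was lowest here too, and without it the log2 fold change was 0.58. NT5E was highest in naive replicate 1, at 72.8 CPM.

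Targets of SRF and its co-activators MRTFA and MRTFB answer to actin assembly and overlap in part with those of YAP. Of 18 tested genes, SRF, MRTFA, MRTFB and 15 of their targets, 16 log2 fold changes were above 0 and 2 below it, the median was 0.39, and 0 passed in edgeR, DESeq2 or limma-voom. At an unadjusted edgeR p below 0.05 there were 3, against 8.68% of all genes tested. They were MRTFB at 0.48 ± 0.17, the focal adhesion protein ZYX at 0.44 ± 0.18 and TGFB1I1 at 0.60 ± 0.25 (SE, n = 3 each). Their edgeR adjusted p were 0.558, 0.566 and 0.566. TGFB1I1 (HIC-5) is a LIM protein of focal adhesions. TGFB1I1 gave 0.36 without post-MI replicate 1. Without naive replicate 1, which was the lowest library for 16 of the 18, the median was 0.15, with 12 positive and 6 negative.

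The other CCN genes that were tested, CCN3, CCN4 and CCN5, encode relatives of CCN1 and CCN2 with the same kind of modular secreted protein. Naive replicate 1 was the lowest library for all 3, most of all for CCN5, at 33.1, 26.4 and 70.8 CPM in the post-MI libraries and 6.56, 123 and 50.0 CPM in the naive libraries. Their log2 fold changes were -0.46 ± 0.87 for CCN5, 0.20 ± 0.46 for CCN4 and -0.23 ± 0.67 for CCN3 (SE, n = 3 each), with edgeR adjusted p of 0.883 to 0.928. Each of these signs turned in at least 1 set with a library left out. CCN6 was below the filter, at 0 to 0.250 CPM.

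**Figure D4:**
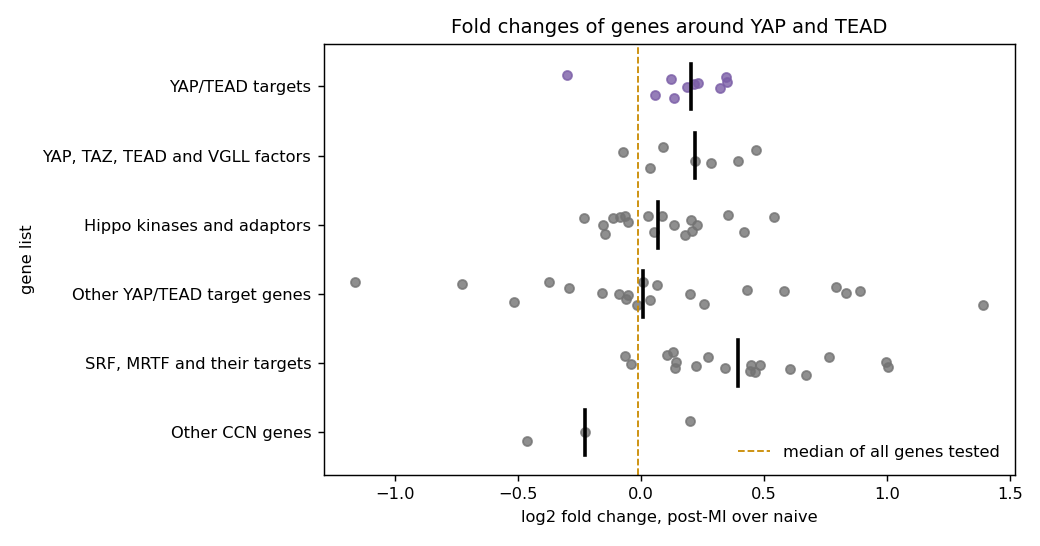
log2 fold change, post-MI over naive (horizontal axis), of each tested gene in the list of 10 targets (purple) and in 5 lists of related genes (grey), with each list's median as a black bar and the median of all genes tested as a dashed line. The medians run from -0.23 for the other CCN genes to 0.39 for SRF, MRTFA, MRTFB and their targets.

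The summed levels of smooth muscle and of fibroblast markers were also lowest in naive replicate 1, though not every marker was. All 10 endothelial markers were tested. Their summed level was 3092 to 4204 CPM in the post-MI libraries and 2786 to 3575 CPM in the naive libraries. For this sum naive replicate 1 was the highest naive library, but 2 of the 10 were lowest and 3 highest there. The median log2 fold change of the 10 was 0.18, with 7 positive and 3 negative. An unadjusted edgeR p below 0.05 was found for 3 (VWF, EGFL7 and CLDN5), against 8.68% of all genes tested, and 0 passed after adjustment. The summed level of 7 smooth muscle and pericyte markers was 4173 to 5723 CPM in the post-MI libraries and 835 to 4656 CPM in the naive libraries, with 835 CPM in naive replicate 1. Of the 6 tested, 4 were lowest in naive replicate 1, while CNN1 was lowest in naive replicate 3 and SMTN was highest in naive replicate 1, at 86.2 CPM. Most of that sum was ACTA2, which is also an SRF target. The pericyte marker RGS5 was at 0 in all 6 libraries, where 3 counts would be 0.145 to 0.202 CPM. Over the 6 smooth muscle and pericyte markers tested the median log2 fold change was 0.74, with 5 positive and 1 negative. Without naive replicate 1 this median was 0.47. CSPG4 was the 1 with an unadjusted edgeR p below 0.05, against 8.68% of all genes tested, and 0 passed after adjustment. The 8 fibroblast and valve interstitial cell markers summed to 10901 to 13065 CPM in the post-MI libraries and 8905 to 15245 CPM in the naive libraries, lowest in naive replicate 1. Naive replicate 1 was the lowest library for 5 of these 8, among them THY1 at 2.15 CPM. POSTN and PDGFRA were highest there, at 3061 and 58.6 CPM. Over the 8 the median log2 fold change was -0.24, with 2 positive and 6 negative. POSTN was the 1 with an unadjusted edgeR p below 0.05, against 8.68% of all genes tested, and 0 passed after adjustment. The 7 leukocyte markers in the table summed to 34.1 to 40.9 CPM with post-MI and 35.6 to 54.9 CPM with naive plasma. Their sum was highest in naive replicate 1, and 4 of them (CSF1R, CD3E, CD79A and ITGAM) were below the filter. Of the 3 tested, CD14 and CD68 made up most of the sum and were highest in naive replicate 1. PTPRC (CD45) was at 0.643, 0.820 and 1.33 CPM in the post-MI libraries, against 0.200, 0.347 and 0.141 CPM in the naive libraries. The naive levels were near the floor, since 3 counts would be 0.145 to 0.202 CPM. For PTPRC the edgeR p was 0.00680 before adjustment and 0.443 after it. In these bulk libraries fewer cells of a type and less RNA per cell cannot be told apart, and the part of such cells in the levels of the 10 targets was not tested.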

How the data were processed

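Per the labels' protocols, stranded mRNA libraries were read as paired ends of 150 bp. The tools named in the submitters' processing notes are STAR 2.5.2b and featureCounts 2.0.0, with SAMtools 1.9 and DESeq2 1.26.0, and the build is Oar_v3.1. Which annotation and strand setting were used is not given in the sources used here, so reads of overlapping and antisense genes may be shared. Raw counts per gene come from the table deposited for the series. The per-sample files deposited beside it hold a signal, which is the same counts divided by 1 factor per library (100% of non-zero counts within 0.01%), and gave no separate test. No column was left without a sample.

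Counts were analysed in R 4.3.3 with edgeR 4.0.16: filterByExpr (minimum count 10, minimum total 15), TMM scaling and the quasi-likelihood test, with Benjamini-Hochberg adjustment over all 14326 genes at 0.05. The SE was derived from the log2 fold change and F, and 95% intervals from the t distribution. Log2 CPM used a prior count of 2. Lists are described by counts and medians, with no test. Named were the 10 targets, up to 3 genes with the smallest p in each list, and the genes nearest in profile to CCN1, CCN2 and ANKRD1. Genes outside this rule, such as the markers, were named after their values were seen. The targets and lists were chosen with earlier results of these data known. A search for promoter and protein motifs was planned and not run. Alternatives were DESeq2 1.42.0, limma-voom (limma 3.58.1), other scalings and filters, a block for the replicate number, and fits that omit 1 library; overlap between groups with 1 library omitted was chosen after seeing the data. All tests were run on simulated data with known changes, where only the fold changes from edgeR had to meet a limit. None of the simulated libraries stood apart as naive replicate 1 did, so the runs do not show how the tests handle such a library. Replicates were grouped by title.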

Additional observations from a re-analysis of the deposited data

How the results depend on the processing

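No alternative called any of the 10 targets, and the number of genes called over the whole table stayed at 0 except in DESeq2, which called 221. Of 130 values of the targets under alternatives 123 kept their sign and their side of the threshold and 7 turned sign, all with a naive library left out. Leaving out each library gave -0.089 to 0.70 for CCN1, -0.20 to 0.59 for CCN2, -0.043 to 0.15 for AMOTL1, -0.097 to 0.43 for AMOTL2, -0.086 to 0.49 for AXL and -0.069 to 0.58 for CRIM1 on the log2 scale, with the low end without naive replicate 1. The median over the targets was lowest without naive replicate 1 (-0.078) and highest without naive replicate 2 (0.49). With all libraries 1 target (AJUBA) was higher without overlap, against 8.32% of all genes. The same 1 was higher without naive replicate 1 (against 12.0%) or naive replicate 3 (against 14.1%). Without naive replicate 2 there were 4 higher (CCN1, CCN2, AJUBA and CRIM1), against 14.98%. There were 2 higher without post-MI replicate 1 (AJUBA and LATS2, against 11.4%) or post-MI replicate 2 (AJUBA and TEAD1, against 10.3%). Without post-MI replicate 3 there were 1 higher (AJUBA) and 1 lower (ANKRD1), against 16.0% of all genes each way. Among the other CCN genes the ranges were -0.71 to 0.55 for CCN3, -0.16 to 0.60 for CCN4 and -1.01 to 0.62 for CCN5, and limma-voom gave 0.21 for CCN3 and 0.23 for CCN5. The cause of these changes of sign was not tested.

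With the replicate number as a block edgeR called 0 genes and 0 targets, the median of the targets was 0.29, and CCN3 and CCN5 turned sign, at 0.18 and 0.23. Same-numbered libraries deviated from their group means with correlations across genes of 0.15, -0.11 and 0.092 for numbers 1, 2 and 3, and post-MI replicates 1 and 3 correlated best with the naive library of their own number but post-MI replicate 2 with naive replicate 3 (0.24). The labels do not say what a number marks, and the libraries were not treated as paired.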

Other observations

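The genes with the profile most like that of a target over the 6 libraries were found by the root mean square difference of centred log2 CPM among 13420 genes whose average log2 CPM was 1 or more. For CCN1 they were HLCS, which attaches biotin to carboxylases (0.066), EHD2, an ATPase of caveolae (0.12), and DDAH1, which breaks down an inhibitor of nitric oxide synthase (0.12). For CCN2 they were the ubiquitin ligase adaptor KLHL22 (0.077), RGL1, an exchange factor for Ral (0.095), and the ubiquitin ligase PJA1 (0.10). For ANKRD1 they were the membrane-bound transcription factor CREB3L1 (0.099), the myosin phosphatase subunit PPP1R12B (0.11) and the nucleotide hydrolase DNPH1 (0.15). CCN1 and CCN2 themselves varied around their means by 0.54 and 0.51 and ANKRD1 by 0.36 on the same scale. Among the 10 targets, AMOTL2 and AXL were nearest to each other, at 0.087.

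The ratio of ANKRD1 to CCN1 counts, which needs no scaling between libraries, was 0.470, 0.458 and 0.599 in post-MI replicates 1, 2 and 3 and 1.35, 0.603 and 0.675 in naive replicates 1, 2 and 3. The highest post-MI value lay just under the lowest naive value. ANKRD1 over CCN2 gave 0.156, 0.128 and 0.260 in the post-MI libraries and 0.436, 0.195 and 0.214 in the naive libraries, which overlapped. These ratios, and 2 others, were chosen after the values were seen and were not tested. The 10 targets together took 0.644% to 0.723% of counts in the post-MI libraries, and 0.377%, 0.941% and 0.619% in naive replicates 1, 2 and 3.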
